A study of Mus musculus with 6 samples.

Results

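The genes described here encode the MCM proteins of mouse: Mcm2, Mcm3, Mcm4, Mcm5, Mcm6, Mcm7, Mcm8 and Mcm10. They were taken by symbol, with every probe that carries one of these symbols, which gave 8 of 17913 named genes and 14 of the 25697 probes on the array. The array was an Illumina bead array, on which each probe reads the transcript of 1 gene as a fluorescence intensity. It was hybridised with total RNA of MEFs, which are fibroblasts cultured from mouse embryos. All cells had the C57BL/6 background and grew to 50% confluence in 10% FBS. One group, ATG-NELF-B, carried truncated NELF-B, and the other, FL-NELF-B, full length NELF-B, with 3 arrays each. NELF-B is a subunit of the negative elongation factor, which holds RNA polymerase II near promoters, and the study concerns its translation from a start codon other than AUG. The labels do not say how the 2 forms were brought into the cells or whether other NELF-B was present. Nor do they say that the 3 replicates came from separate cultures, and p-values may therefore rest on technical spread alone.

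MCM2 to MCM7 form a ring that is loaded onto origins of replication before S phase and, once joined by CDC45 and the GINS complex, becomes the helicase that unwinds DNA at the fork. MCM10 is not a ring subunit. It binds the assembled helicase and is needed for origins to fire. MCM8 acts with MCM9 in homologous recombination repair and is not loaded as part of the ring. Transcription of ring subunit genes is known to rise as cells enter the cycle, and E2F factors bind several of their promoters, so their messages are often read as a mark of proliferating cells.

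The arrays were similar in overall brightness, with a median intensity of 143 to 152 and with 46.4% to 48.7% of probes detected, that is, with a detection p under 0.05 against the negative controls. Of 11 fibroblast markers, 10 were on the array and 8 of these were detected on every array (Col1a1, Col1a2, Col3a1, Dcn, Pdgfra, Pdgfrb, S100a4 and Vim), while Thy1 and Lum were not detected on any. No epithelial or endothelial marker was detected on every array, of 4 with probes for each, and of 5 blood cell markers only Cd68 was. Nelfb itself, whose probe cannot be placed within the transcript, had a log2 fold change of 0.32 ± 0.11 (SE, adjusted p = 0.144) and so does not check the labels. Throughout, fold changes are truncated over full-length on a log2 scale after background correction and quantile normalization, with the standard error (SE) of the limma fit, n = 3 arrays per form, and adjusted p-values from limma with Benjamini-Hochberg adjustment over all 8990 genes tested.

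The detected MCM genes all had higher mean levels in the cells with truncated NELF-B, though most of the differences did not pass the test over all genes. Mcm3 and Mcm10 rose, by 1.67-fold each. The other 5 detected genes, Mcm2, Mcm4, Mcm5, Mcm6 and Mcm7, had values 1.25-fold to 1.46-fold higher and did not pass. Mcm8 was not detected on any array. The called count was therefore 2 of 7 tested genes, both higher, where 0.512% of all genes tested were called higher and 1.6% were called in either direction. The 144 called genes split into 46 higher and 98 lower (68.1% lower), a split that depended on the processing. It was 12 and 69 (85.2% lower) with median scaling of the arrays, 335 and 371 (52.5% lower) with no background correction and 350 and 381 (52.1% lower) with the authors' processed values.

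All 7 tested genes had a value above 0, as did 4648 of all 8990 genes tested. The median log2 fold change of the 7 was 0.52, against 0.01 over all genes tested. In 6 of the 7 every truncated array lay above every full-length array, as it did for 12.9% of all genes tested. An unadjusted p under 0.05 with a value above 0 was also seen for 6 of the 7 and for 9.76% of all genes. The 7 genes, like those of each list below, share the same arrays, so such counts are not of independent results. Each gene was read by its brightest probe, which was detected on all 6 arrays in each case, so none of these genes entered the test through 1 form alone. In these bulk samples a larger share of cells in S phase and more message per cell cannot be told apart.

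**Figure D1:**
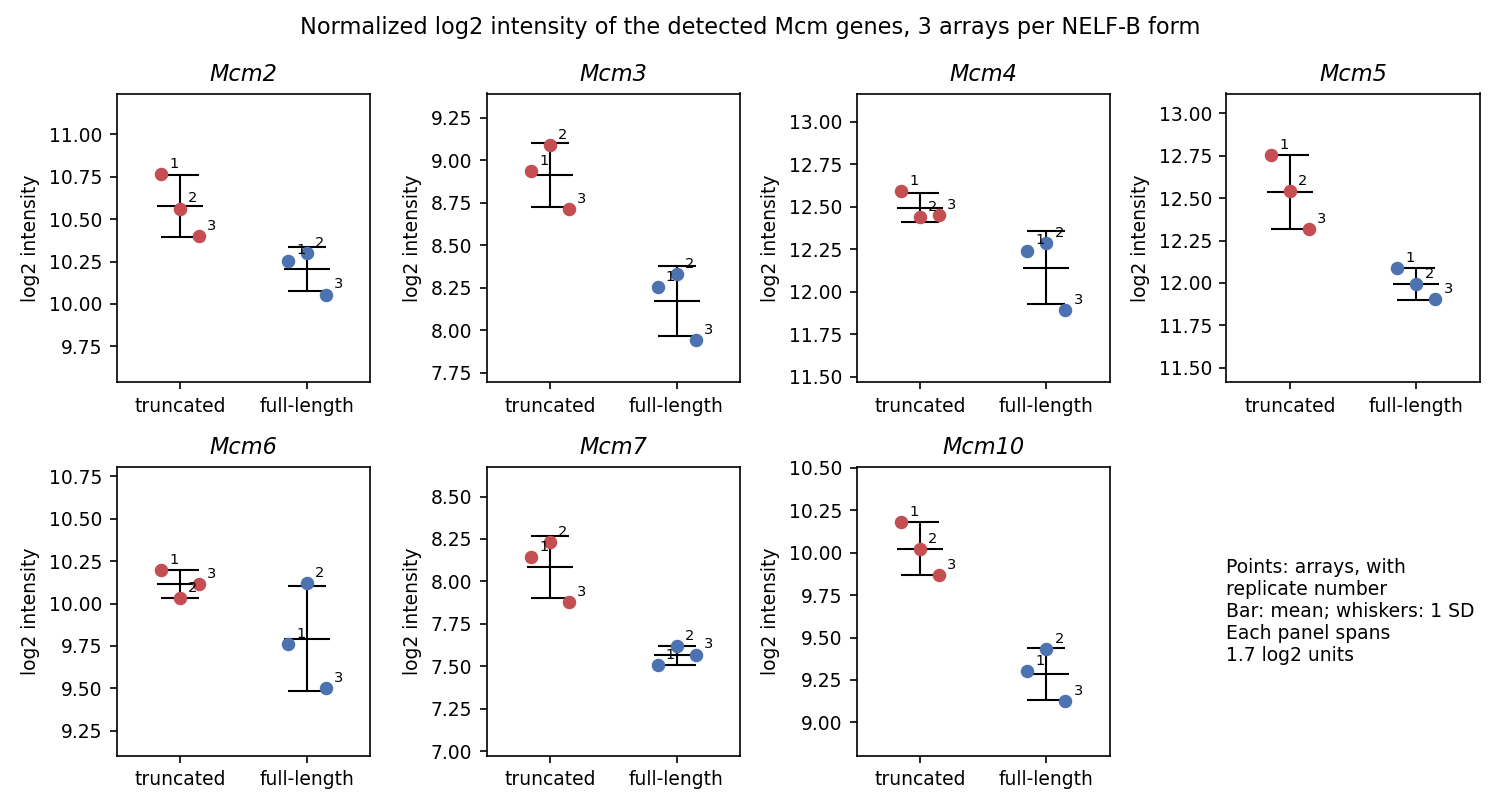
Normalized log2 intensity (vertical axis) of the 7 detected MCM genes, with 1 point per array numbered by replicate, the mean as a bar and 1 SD as whiskers (n = 3). The forms do not overlap for 6 genes, and for Mcm6 full-length replicate 2 lies among the truncated arrays. Every panel spans the same number of log2 units, and the height of a panel's values is not comparable between genes.

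Mcm3 encodes the ring subunit that, in budding yeast, makes the first contact with the loading complex of ORC and Cdc6. Its normalized log2 intensity was 8.94, 9.09 and 8.71 on truncated arrays 1, 2 and 3, and 8.25, 8.33 and 7.94 on full-length arrays 1, 2 and 3. The 2 forms did not overlap, and replicate 3 was the lowest array of each. Group means were 8.91 ± 0.19 (SD, n = 3) for truncated and 8.17 ± 0.21 (SD, n = 3) for full-length arrays. The difference of 0.74 ± 0.14 passed in limma (adjusted p = 0.0482), but not with median scaling (0.68, adjusted p = 0.0751) or with no filter on dim probes (adjusted p = 0.0861). Only 0.30% of the genes tested had a fold change at least as high.

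Mcm10 encodes the activation factor outside the ring. Its values were 10.18, 10.02 and 9.87 on truncated arrays 1, 2 and 3, and 9.30, 9.43 and 9.12 on full-length arrays 1, 2 and 3. Again no full-length array reached the lowest truncated one. The log2 fold change was 0.74 ± 0.13 (adjusted p = 0.0388), the smallest p of the family, and it did not pass with no filter on dim probes (adjusted p = 0.0711). A further Mcm10 probe was also detected on all 6 arrays and gave 0.69 ± 0.15 in a fit of every probe, without overlap between the forms. Both calls depended on single arrays: Mcm3 and Mcm10 passed without truncated replicate 3 but not when any 1 of the other 5 arrays was left out, where their adjusted p was 0.0824 to 0.173.

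Mcm7 and Mcm5 lay just short of the threshold. Mcm7 belongs, with Mcm4 and Mcm6, to the subunits that unwind DNA in vitro without the rest of the ring. Its values were 8.14, 8.23 and 7.88 on truncated arrays 1, 2 and 3, and 7.51, 7.62 and 7.57 on full-length arrays 1, 2 and 3. The full-length arrays lay close together and below all truncated ones. The log2 fold change was 0.52 ± 0.12 (adjusted p = 0.0700). Mcm5, which with Mcm2 lines the gate through which DNA enters the ring, read 12.75, 12.54 and 12.32 on truncated arrays 1, 2 and 3, and 12.09, 11.99 and 11.90 on full-length arrays 1, 2 and 3. Its log2 fold change was 0.54 ± 0.13 (adjusted p = 0.0807). Without truncated replicate 3 both passed, at 0.62 (adjusted p = 0.0398) for Mcm7 and 0.66 (adjusted p = 0.0418) for Mcm5. With any 1 of the other arrays left out, the limma adjusted p was higher than in the full fit. It was 0.142 to 0.233 for Mcm7 and 0.158 to 0.250 for Mcm5.

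Mcm2, the gate partner of Mcm5 and a histone chaperone, had smaller differences. It read 10.76, 10.56 and 10.40 on truncated arrays 1, 2 and 3, and 10.26, 10.30 and 10.06 on full-length arrays 1, 2 and 3. The lowest truncated and the highest full-length array were close, though they did not overlap, and the log2 fold change was 0.37 ± 0.13 (adjusted p = 0.160). Mcm4 was similar, at 12.59, 12.44 and 12.45 on truncated arrays 1, 2 and 3 and 12.24, 12.29 and 11.89 on full-length arrays 1, 2 and 3. Full-length replicate 3 stood below the other 2 full-length arrays. The Mcm4 log2 fold change was 0.35 ± 0.13 (adjusted p = 0.185), and 0.23 without full-length replicate 3.

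Mcm6, the subunit that binds the loading factor Cdt1, was the only detected member whose brightest probe overlapped between the forms. Its values were 10.20, 10.03 and 10.11 on truncated arrays 1, 2 and 3, and 9.76, 10.12 and 9.50 on full-length arrays 1, 2 and 3. Full-length replicate 2 reached the truncated level and replicate 3 lay lowest. The log2 fold change was 0.32 ± 0.16 (adjusted p = 0.294), with an interval from -0.04 to 0.68, and it was 0.48 without full-length replicate 2 and 0.18 without full-length replicate 3. The two-sided exact permutation p over the 6 arrays was 0.3 for Mcm6. For each of the other 6 genes it was 0.1, the smallest that 3 against 3 arrays allow.

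Among the 14 probes, 11 passed the filter of detection on at least 3 arrays and 10 of these had values above 0. In the fit of all 12227 probes none of the 11 was called, with the lowest adjusted p at 0.0519 for the brightest Mcm10 probe, while 0.164% of all probes tested were called higher. By unadjusted p under 0.05, 9 of the 11 passed with a value above 0, as did 9.32% of all probes tested. The forms did not overlap, with truncated higher, for 9 of the 11 probes and for 12.5% of all probes. Some of the 11 read the same gene and all share the same arrays, so these counts are not of independent results. The 2 further Mcm6 probes gave log2 fold changes of 0.47 ± 0.12 and 0.40 ± 0.15, each without overlap, so of the 3 detected Mcm6 probes only the brightest overlapped.

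The exception was a dim Mcm4 probe, detected on 5 arrays, with intensities of 140, 154 and 156 on truncated arrays 1, 2 and 3 and 163, 158 and 155 on full-length arrays 1, 2 and 3. These lie near the array medians. Its log2 fold change was -0.28 ± 0.13 (adjusted p = 0.301). Averaging the probes of a gene in place of taking the brightest therefore brought Mcm4 to 0.04. Of the 3 probes that did not pass, another Mcm4 probe was detected on 2 arrays, and a Mcm6 probe (intensities of 123 to 145) and the only Mcm8 probe on none. The Mcm8 intensities were 135, 136 and 130 on truncated arrays 1, 2 and 3 and 128, 136 and 128 on full-length arrays 1, 2 and 3, with detection p from 0.328 to 0.823. Both forms were thus not above background for Mcm8, which gives no fold change.

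**Figure D2:**
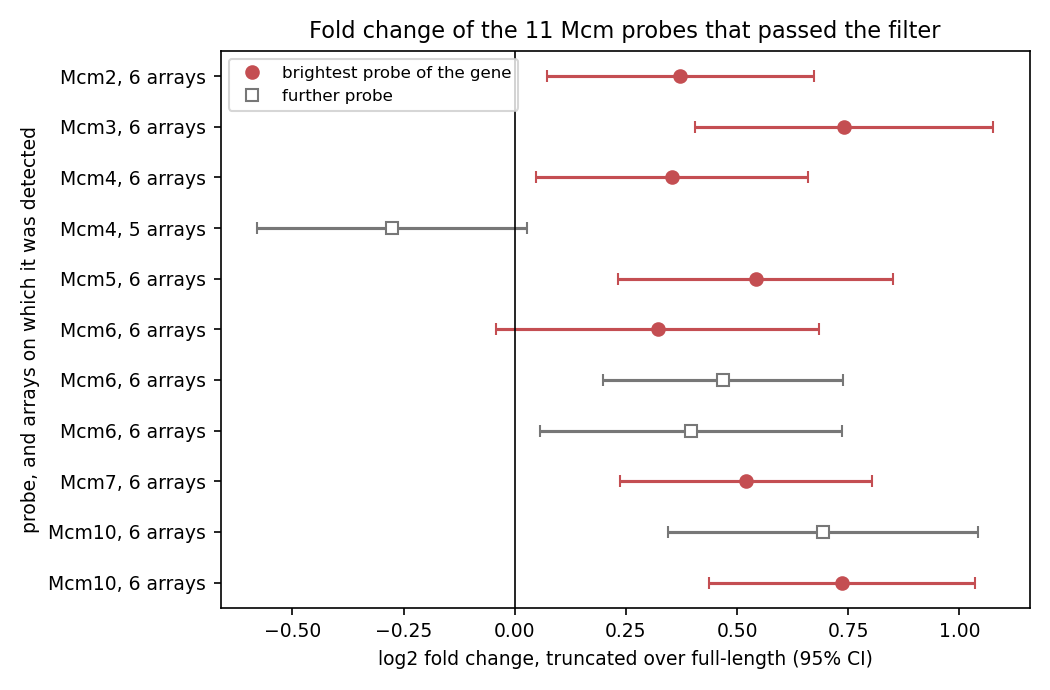
Log2 fold change (horizontal axis, truncated over full-length) with its 95% confidence interval for the 11 MCM probes that passed the filter, 3 arrays per form, with the number of arrays that detected each. Filled circles are each gene's brightest probe and open squares further probes. All but the dim Mcm4 probe (-0.28) lie above 0.

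Within the family the fold changes ran from 0.32 for Mcm6 to 0.74 for Mcm3. Their 95% intervals overlapped, from -0.04 to 0.68 for Mcm6 and from 0.41 to 1.07 for Mcm3, and the difference between members was not tested. Centred on each gene's mean over the 6 arrays, the ring subunits Mcm2 to Mcm7 averaged 0.35, 0.27 and 0.10 on truncated arrays 1, 2 and 3, and -0.20, -0.11 and -0.41 on full-length arrays 1, 2 and 3. Truncated replicate 3 was thus the truncated array nearest to the full-length ones, and full-length replicate 3 stood lowest. The mean of the ring genes did not overlap between the forms. On full-length replicate 3 the centred values spread from -0.60 for Mcm3 to -0.25 for Mcm7.

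**Figure D3:**
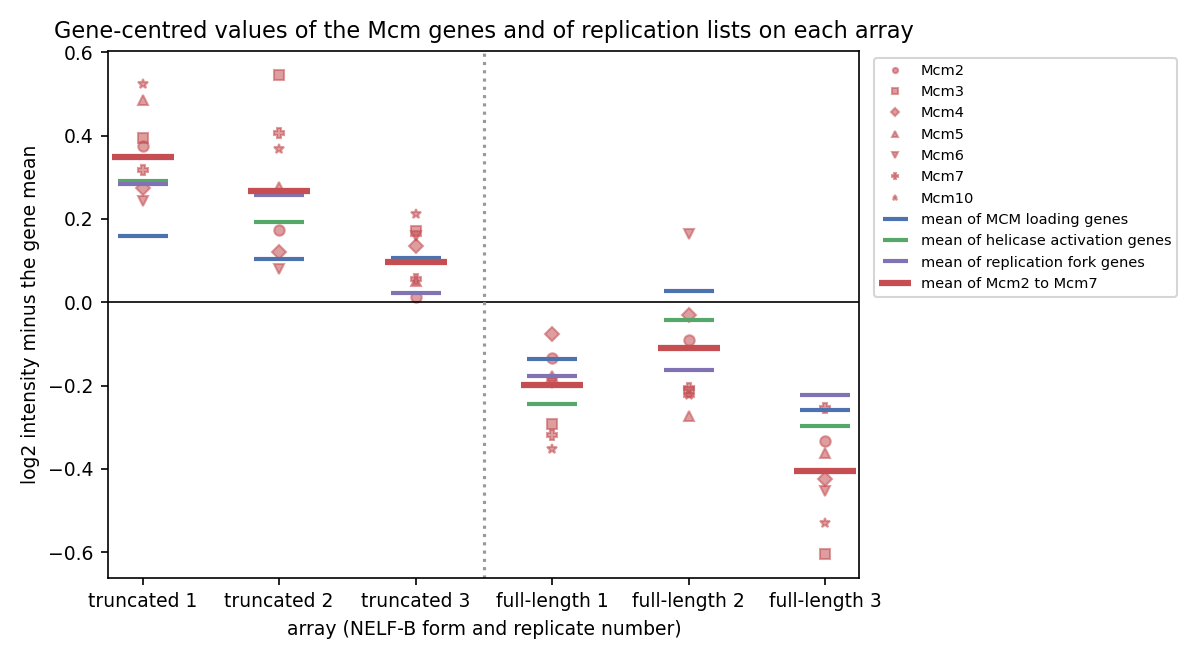
Log2 intensity minus the gene's mean over the 6 arrays (vertical axis) on each array. Symbols are the 7 MCM genes, the thick bar is the mean of Mcm2 to Mcm7, and thin bars are the means of the loading, activation and fork lists. The thick bar lies between 0.10 and 0.35 on the truncated arrays and between -0.41 and -0.11 on the full-length arrays.

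**Figure D4:**
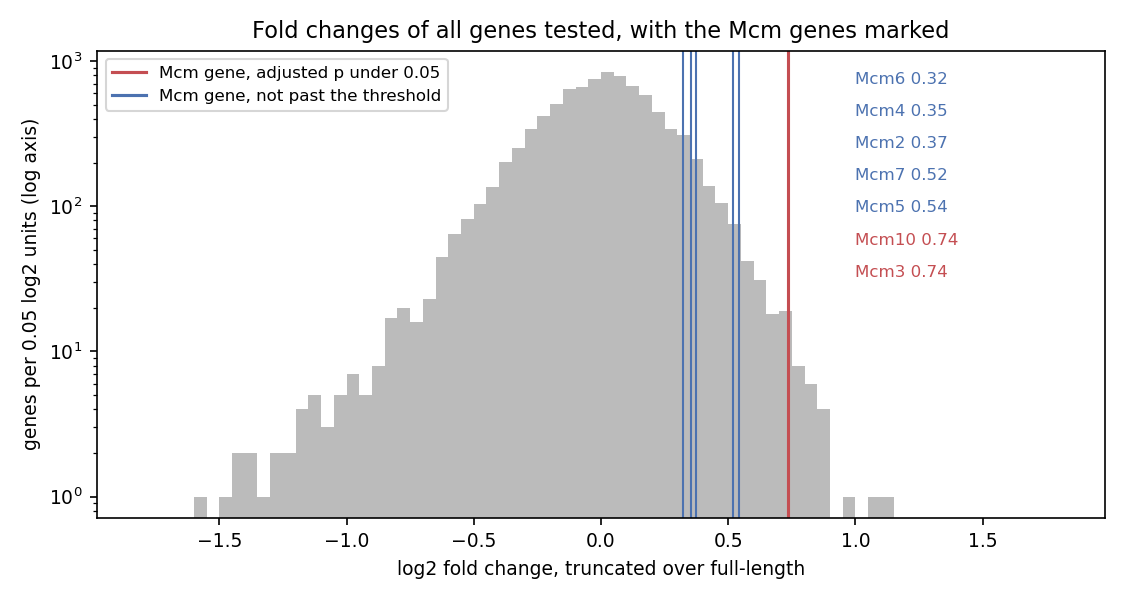
Distribution of the log2 fold changes (horizontal axis) of the 8990 genes tested, with the number of genes per bin on a log axis. Vertical lines mark the 7 MCM genes, red where the adjusted p was under 0.05. The lines lie on the higher side, from 0.32 to 0.74.

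The 300-base windows around the annotated starts (250 bases before to 50 after, RefSeq, GRCm38.p6) were matched for 7 of the 8 members, all but Mcm4. They were searched on both strands for 4 words that fit the E2F site: TTTCCCGC, TTTCGCGC, TTTGCCGC and TTTGGCGC. At least 1 word stood in a window of Mcm3, Mcm5, Mcm6, Mcm7 and Mcm8 (5 of 7 members), and in 2.26% of all 32851 windows. Among tested genes with a window the share was 4.87%. No word was in the windows of Mcm2 and Mcm10, which says only that these letters are not there. A match is a description of the letters and not a bound site. The stretches before the start are shown because they hold the words of the ring subunits whose messages were measured, with the words in capitals and given 5′ to 3′ on the gene's strand. Positions are counted from the start, which is base 1, with negative numbers before it. Mcm7 has 2 windows, and its words are all in the window at chr5:138171834-138172133, whose start is used. The annotated Mcm7 gene reaches to chr5:138172111, so its stretch before that start still lies within the annotated span of the gene.

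Mcm5, + strand, chr8:75109336-75109387, positions -173 to -122, with 2 overlapping words on opposite strands: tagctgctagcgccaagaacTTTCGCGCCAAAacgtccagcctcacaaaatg
Mcm6, - strand, chr1:128359784-128359835, positions -130 to -79, with 2 overlapping words on opposite strands: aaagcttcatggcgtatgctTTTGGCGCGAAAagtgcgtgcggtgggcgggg
Mcm6, - strand, chr1:128359725-128359772, positions -67 to -20, with 1 word: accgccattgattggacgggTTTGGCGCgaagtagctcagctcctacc
Mcm7, - strand, chr5:138172021-138172068, positions -185 to -138, with 1 word on the opposite strand: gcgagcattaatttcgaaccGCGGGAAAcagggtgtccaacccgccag

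In Mcm3 both words lie past the start, as does a further word in Mcm7. These are shown as stretches of at most 30 bases, beside the Mcm8 word, whose gene was not detected.

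Mcm3, - strand, chr1:20820275-20820304, positions 9 to 38: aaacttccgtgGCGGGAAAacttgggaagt
Mcm3, - strand, chr1:20820263-20820285, positions 28 to 50: acttgggaagtTTTGGCGCcaag
Mcm7, - strand, chr5:138171849-138171878, positions 6 to 35: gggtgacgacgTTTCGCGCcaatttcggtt
Mcm8, + strand, chr2:132816169-132816190, positions 29 to 50: gcgtcatagacGCGCCAAAaaa

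Mcm5 and the upstream Mcm6 stretch thus share a paired arrangement, in which words on the 2 strands overlap by 4 bases. The presence of a word did not sort the members by fold change. Mcm3 (0.74) and Mcm6 (0.32), at the ends of the range, both held words, and Mcm10 (0.74) and Mcm2 (0.37) held none. The CCAAT word, searched on both strands, was in a window of all 7 matched members and in 37.4% of all windows. GGGCGG, the GC box, was in 6 of the 7 and in 35.7% of all windows. Counted by gene, the shares among tested genes with a window were 44.1% for CCAAT and 70.1% for the GC box. The GC box is thus common among tested genes.

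Of 9 listed genes for loading the ring onto origins (the 6 ORC subunits, Cdc6, Cdt1 and the Cdt1 inhibitor Gmnn), 6 were tested. None of the 6 was called in either direction. With only 1.6% of all genes tested called, this does not set the loading genes apart. Of the 6, 5 had values above 0, as did 4648 of all 8990 genes tested, and the median was 0.22. Cdc6, the ATPase that joins ORC to the ring, stood at 0.69 ± 0.14 (adjusted p = 0.0520) without overlap between the forms. Orc5 was at 0.23 ± 0.13 and Cdt1 at 0.21 ± 0.12, and Orc6 at 0.19 ± 0.12. The value of Orc3, an ORC subunit, was -0.14 ± 0.16. Gmnn was not detected on any array.

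Of 15 genes that turn the loaded ring into the active helicase, 10 were tested and none was called. With only 1.6% of all genes tested called, this does not set the activation genes apart. All 10 had values above 0, as did 4648 of all 8990 genes tested, and the median was 0.42. In 6 of the 10 the forms did not overlap, with truncated higher, as for 12.9% of all genes tested. Ccne2, an activating cyclin of CDK2, stood at 0.75 ± 0.16 (adjusted p = 0.0582). Cdc7, the kinase that phosphorylates the ring, was at 0.60 ± 0.15 (adjusted p = 0.0783), and its activating subunit Dbf4 at 0.50 ± 0.15 (adjusted p = 0.115). Cdc45, which joins the ring in the active helicase, was at 0.52 ± 0.13 (adjusted p = 0.0869). The GINS subunits Gins3 (0.18 ± 0.15) and Gins4 (0.06 ± 0.11) and the kinase gene Cdk2 (0.09 ± 0.14) had smaller values.

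Of 26 genes of the polymerases, clamp, clamp loader and fork protection factors, 23 were tested. Of these, 2 were called higher, as were 0.512% of all genes tested, and none lower. Every one of the 23 had a value above 0 (median 0.39), as did 4648 of all 8990 genes tested. In 16 of the 23 the forms did not overlap, with truncated higher, as for 12.9% of all genes tested. The 2 called were Pola2, a subunit of DNA polymerase alpha (0.72 ± 0.10, adjusted p = 0.0263), and the flap endonuclease Fen1 (0.58 ± 0.10, adjusted p = 0.0392). Tipin (0.49 ± 0.11) and Clspn (0.60 ± 0.14), both fork protection factors that travel with the helicase, did not pass (adjusted p = 0.0635 and 0.0650). The sliding clamp gene Pcna was read by a dim probe with a value of 0.01 ± 0.26.

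Mcmbp, a binding protein of the ring subunits, stood at 0.38 ± 0.12 (adjusted p = 0.134) without overlap between the forms, and Hrob, which recruits MCM8 and MCM9, at 0.06 ± 0.20. The Mcm9 probe was detected on 1 array and the Mcm3ap probe on none. Of 11 E2F factors and pocket proteins 9 were tested and none called, where 1.6% of all genes tested were called. Each of the 9 had a value above 0 (median 0.35), as did 4648 of all 8990 genes tested. E2f1, an activator of S phase genes, was at 0.40 ± 0.12 (adjusted p = 0.119), E2f4 at 0.38 ± 0.12, E2f5 at 0.41 ± 0.14 and the retinoblastoma gene Rb1 at 0.32 ± 0.11. Among 8 proliferation markers outside replication, 4 were tested and none called, beside the same 1.6% of all genes tested. Aurka was at 0.48 ± 0.14, Cdk1 at 0.28 ± 0.12, Ccnb1 at 0.32 ± 0.18 and Top2a at 0.10 ± 0.12. The MCM genes' median of 0.52 stood above the medians of these lists, and the difference between lists was not tested.

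Of the 8 fibroblast markers tested, 6 had values below 0 and 2 above 0. Dcn, a small proteoglycan of the collagen matrix, fell (-0.79 ± 0.14, adjusted p = 0.0441), a call made for 1.09% of all genes tested, and 7 did not pass. The collagen genes Col1a2 (-0.58 ± 0.12), Col3a1 (-0.66 ± 0.15) and Col1a1 (-0.46 ± 0.12) and the receptors Pdgfra (-0.49 ± 0.17) and Pdgfrb (-0.24 ± 0.10) were below 0. S100a4 (0.12 ± 0.11) and Vim (0.08 ± 0.13) were above 0. In 6 of the 8 every truncated array lay below every full-length array, as for 12.8% of all genes tested, and the median was -0.47. The summed intensity of the marker probes, before background correction and normalization, was 21608 to 28450 on the truncated and 28715 to 34169 on the full-length arrays. For the epithelial list it was 546 to 565 and 570 to 593, and for the endothelial list 663 to 696 and 707 to 718. For the blood cell list it was 1079 to 1121 and 1103 to 1140. Most probes of the epithelial, endothelial and blood cell lists were detected on 1 array or none. Their sums are therefore largely background and cannot be read as a difference between the forms. The 1 tested gene of each of these lists did not pass, with Cdh1 at -0.19 ± 0.13, Kdr at -0.44 ± 0.13 and Cd68 at -0.06 ± 0.16. Of the defining markers, Cdh5 and Pecam1 were detected on no array and Ptprc on 1, and Epcam had no probe and was not measured. The part of these markers in the MCM result was not tested.

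The profile of the ring genes over the 6 arrays was compared with that of 8983 other tested genes by the root mean square distance between gene-centred values. The nearest was Jpt2, at 0.043 log2 units, followed by LOC100047619 (0.052). Then came Nup62, a nuclear pore protein (0.053), Reep4, which clears membrane from mitotic chromosomes (0.053), the chromosome-binding kinesin Kif22 (0.055) and the separase gene Espl1 (0.056). None of these 6 was called (log2 fold changes of 0.38 to 0.49). The distance covers all 6 arrays and so the form difference, and fold changes near the ring mean follow from the choice. They are therefore no separate result about these genes. For comparison, the ring genes were set against their own mean. The distance was 0.066 for Mcm2, 0.091 for Mcm4, 0.092 for Mcm5, 0.107 for Mcm7, 0.145 for Mcm6 and 0.155 for Mcm3. Each ring gene is part of that mean, which brings it nearer. These distances are thus not like for like with those of other genes. Among the genes of all the lists above, Cdc45 was nearest at 0.068, with rank 22 of the 8983, ahead of Mcmbp (0.070, rank 26) and Clspn (0.073, rank 30).

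The direction of the family held under all 17 alternatives tried, while the calls did not. Each of the 119 values (7 genes, 17 alternatives) was above 0. Changes of the filter or the variance model, and a term for replicate number, left the log2 fold changes as they were. All 17 alternatives reuse the same arrays, so the values are not independent and their number is no measure of support. Mcm10 was called in 10 of the 17, Mcm3 in 9, Mcm7 in 7, Mcm5 in 6, Mcm2 and Mcm4 in 3 each, and Mcm6 in none. A variance model with a trend and robust moderation called 6 of the 7 genes, all but Mcm6, and a fit without filter on dim probes called none.

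**Figure D5:**
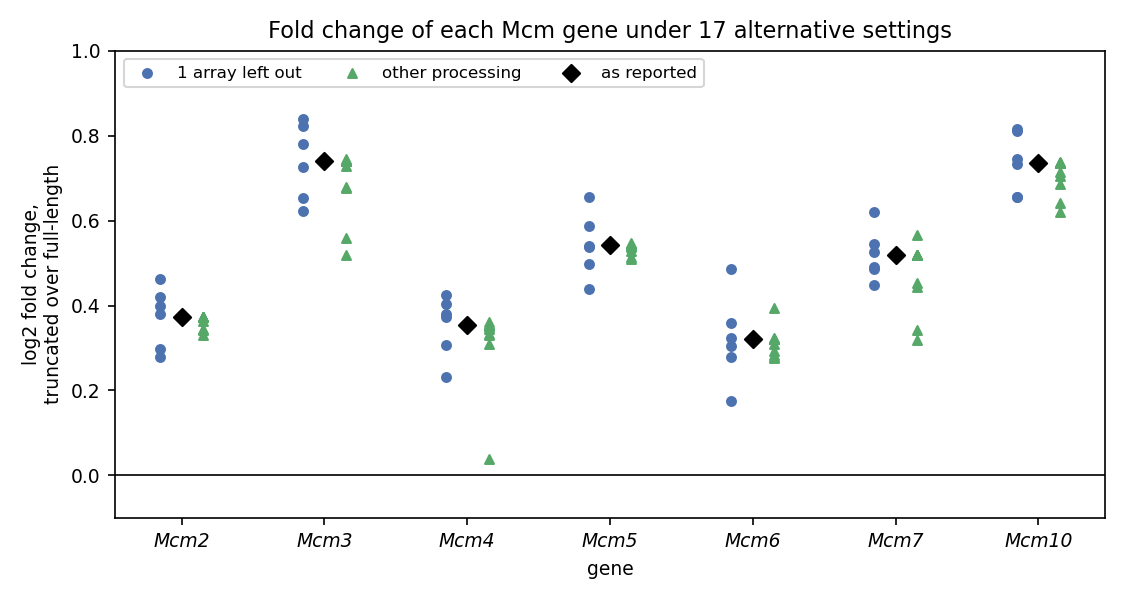
Log2 fold change (vertical axis, truncated over full-length) of each MCM gene as reported (diamonds), with 1 array left out (circles, 6 fits) and under other processing (triangles, 11 fits). All points lie above 0, and the lowest, at 0.04, is Mcm4 with its probes averaged.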

How the data were processed

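Biotin-labelled RNA of 6 samples was read on bead arrays of 1 colour, per the labels. The groups come from the sample titles. The deposited table holds an intensity and a detection p-value per probe and array, called non-normalized per the file headers, and the submitters' processing notes name GenomeStudio. A second deposited table holds intensities whose columns look quantile normalized (medians of 143, linear scale, columns correlated with the same array's log2 intensities at 0.9996 or more), which no label states, and was tried as an alternative. Of the value columns, 0 were left out. The authors' probe sequences and chip positions were not used here.

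In limma 3.58.1 (R 4.3.3), intensities were background-corrected with neqc from the detection p-values (offset 16), quantile normalized and converted to log2. The offset shrinks the folds of dim probes. The filter required detection (p under 0.05) on 3 or more arrays (12227 probes), each gene was read by its brightest probe (8990 genes), and groups were compared with lmFit and eBayes, Benjamini-Hochberg adjusted, threshold 0.05. Probes were named through RefSeq accessions (24202 of 25697), current symbols (536) or synonyms (297), and 662 kept what the file gave. The fit was run on simulated data drawn from its own variance model, which does not test for technical spread or array effects. No 2 arrays held identical values (0 pairs). The members and lists were chosen with earlier results of these data known. Besides the members, the text names every called gene of a list, the 4 lowest in p per list, and the 6 genes nearest in profile. Genes named outside this rule (Nelfb, Orc1, Orc3, Gins3, Gins4, Cdk2, Topbp1, Pcna, Lig1, Pold1, Rfc3, Ap4m1, Atl3, Cdca7, Zfp367, the undetected genes and further markers) were chosen after their values were seen. The number of arrays limits the precision.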

Additional observations from a re-analysis of the deposited data

How the results depend on the processing

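The number of called genes, 144 of 8990, depended on the processing, and with it the number of called MCM genes, 2 of 7. With no background correction 706 genes and 6 MCM genes were called, with an offset of 50 it was 534 and 4, with the authors' processed values 731 and 6, with a variance trend and robust moderation 723 and 6, and with array weights 355 and 4. With median scaling it was 81 and 1, the 1 being Mcm10, and with no filter on dim probes 33 and 0, where more genes are tested and 6 of the 7 still had an unadjusted p under 0.05 in limma. With detection on all 6 arrays 252 genes were called, and 3 MCM genes. Leaving out 1 array gave 0 to 323 genes and 0 to 4 MCM genes. Leaving out truncated replicate 1 left 0 calls in limma over all genes (1178 at an unadjusted p under 0.05), as did leaving out either full-length replicate 1 (1430) or 2 (1548). It was 6 calls when full-length replicate 3 was dropped, 13 for truncated replicate 2 and 323 for truncated replicate 3. The MCM count was 4 without truncated replicate 3 and 0 without any 1 of the other arrays, with 4 to 7 of the 7 genes at an unadjusted p under 0.05. With the replicate block 33 genes and no MCM gene were called (6 of 7 at an unadjusted p under 0.05). Deviations of same-numbered arrays correlated at 0.03, -0.16 and -0.14, and those of differently numbered arrays at -0.04 to 0.18. No pairing by number was thus seen over all genes, though 3 arrays per form cannot exclude it. For the mean of Mcm2 to Mcm7, replicate 3 was the lowest array of both forms (0.10 truncated and -0.41 full-length, gene-centred). Replicates 1 and 2 did not keep their order between the forms. The median of the MCM genes stayed between 0.34 and 0.62 in the 17 alternatives, which reuse the same arrays. No gene's value changed sign. The cause of the other changes was not tested. Mcm8 lay at background, so nothing about its level can be read.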

Other observations

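Of 7047 tested genes with a promoter window, 343 held at least 1 of the 4 E2F words, the ring genes Mcm3, Mcm5, Mcm6 and Mcm7 among them. Their median log2 fold change was 0.08, against 0.01 for the genes without a word, and 65.3% of them had values above 0, against 51.5%. Of the 343, 4 were called higher (1.17%; Atl3, Cdca7, Mcm3 and Zfp367) and 1 lower, and of the genes without a word 0.492% were called higher. Atl3, Cdca7 and Zfp367 are named because they complete that count.

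In the replication lists the words were also in a window of Orc1, Orc3, Cdc6 and Cdt1 (4 of 8 loading genes with a window), of Gins3, Topbp1 and Cdk2 (3 of 8 activation genes) and of 8 of 22 fork genes, Clspn, Lig1 and Pold1 among them. Among those tested, the log2 fold changes of word-holding genes ran from -0.14 (Orc3) to 0.69 (Cdc6) for loading, were 0.18 (Gins3) and 0.09 (Cdk2) for activation, and ran from 0.18 (Rfc3) to 0.60 (Clspn) for the fork.

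Mcm7 shares its upstream region with Ap4m1, a subunit of an adaptor complex of vesicle transport, whose annotated start lies 138 bases upstream of the nearer Mcm7 start, on the other strand. The Mcm7 stretch printed at positions -185 to -138 thus lies at and past the Ap4m1 start, seen from Mcm7. Ap4m1 had a log2 fold change of 0.26 ± 0.13 and did not pass (adjusted p = 0.296), beside 0.52 ± 0.12 for Mcm7. Among the starts with a window, no opposite-strand start lay within 1000 bases upstream of any other member with a window. Neighbouring genes without a window, and Mcm4, were not covered by this search.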
